A study of Homo sapiens with 4 samples.

Results

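Most protein-coding genes have more than 1 annotated start site, and one of them is designated canonical. Here the genes were examined whose canonical start carried no H3K27ac peak in triple-negative breast cancer (TNBC) cells while another annotated start of the same gene did. A gene on chromosomes 1 to 22 or X was taken when no peak lay within 1 kb of its Ensembl canonical start in any of 3 large peak lists, and the same alternative start of a GENCODE basic transcript (the representative subset of the annotation) had a peak within 1 kb in each of the 3. The rule gave 330 genes with 621 marked alternative start sites, or 1.65% of the 19970 protein-coding genes, of which 11112 (55.6%) had the canonical start marked in all 3 lists. Of the 4435 genes with an unmarked canonical start and at least 1 other basic start, these were 7.44%, and their sites were 5.87% of 10585 such starts. The members were chosen by the presence of peaks in these lists, so presence, position and strength of the peaks are given as a description without a test.

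H3K27ac was mapped by chromatin immunoprecipitation sequencing in 4 libraries, 2 each of MDA-MB-231 and Hs578T, 2 established TNBC cell lines. Per the labels and the design text, cells of both lines were handled alike. They were starved in a reduced-serum medium for 8 h, given 10 ng/ml of TWEAK, a cytokine that binds Fn14 (the product of TNFRSF12A), for 48 h and then left without it for 72 h, although the text of the study names a longer wash-off. Untreated cells and cells under TWEAK were not analysed here, so nothing below concerns an effect of TWEAK.

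The list of MDA-MB-231 replicate 1 stood apart, with 209 peaks. The list of MDA-MB-231 replicate 2 held 43353, that of Hs578T replicate 1 held 46330 and that of Hs578T replicate 2 held 44920. The small list marked 0 of the 621 alternative sites and 0 of the 330 canonical sites, and is outside the rule. The depth of sequencing is unknown, as the lists give no read totals. Overlap was similar among the large lists, slightly highest between the Hs578T lists, and very low with the small list. The share of covered bases held in common (Jaccard index) was 0.770 and 0.759 between MDA-MB-231 replicate 2 and the Hs578T lists, 0.780 between the Hs578T lists and at most 0.00067 between MDA-MB-231 replicate 1 and any other list. Of the mesenchymal markers VIM, AXL, CD44, ZEB1 and FN1, 5 of 5 had a marked canonical start in each large list, against 1 of 6 luminal or epithelial markers, and none of these genes was a member.

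Acetylation of histone H3 at lysine 27 is deposited by p300/CBP on nucleosomes beside active promoters and at active enhancers. A gene with several promoters can be transcribed from one of them in one tissue and from another elsewhere. The choice can change the first exon alone, or the start codon and with it the amino terminus of the protein. H3K27ac also marks enhancers inside genes, and RNA was not analysed here, so a peak at a start site does not show that transcripts begin there.

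The sequences just upstream of the start sites differed in CpG content between genes, and 3 genes show the range. ETS1, a transcription factor gene, had a CpG-dense alternative start. NEBL, which encodes the actin-binding protein nebulette, had a CpG-dense alternative start and a CpG-poor canonical one. GNAL, a G protein alpha subunit of the olfactory system, had the reverse. The 200 bases before each start are printed 5′ to 3′ on the gene's strand (hg38) with CG dinucleotides in capitals.
ETS1 alternative start, chr11:128522311-128522510, minus strand: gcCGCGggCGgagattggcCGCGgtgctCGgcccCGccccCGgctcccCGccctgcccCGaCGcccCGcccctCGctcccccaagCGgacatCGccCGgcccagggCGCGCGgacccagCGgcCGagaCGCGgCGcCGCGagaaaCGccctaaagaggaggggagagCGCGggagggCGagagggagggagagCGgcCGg
NEBL alternative start, chr10:21174188-21174387, minus strand: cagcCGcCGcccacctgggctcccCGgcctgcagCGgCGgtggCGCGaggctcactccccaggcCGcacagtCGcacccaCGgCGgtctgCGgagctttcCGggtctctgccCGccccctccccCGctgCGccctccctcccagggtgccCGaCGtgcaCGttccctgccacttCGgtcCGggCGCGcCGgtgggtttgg
NEBL canonical start, chr10:20897312-20897511, minus strand: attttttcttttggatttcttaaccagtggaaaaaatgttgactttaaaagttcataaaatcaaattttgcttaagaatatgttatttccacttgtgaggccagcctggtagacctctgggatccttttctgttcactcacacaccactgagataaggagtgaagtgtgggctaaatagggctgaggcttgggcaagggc
GNAL alternative start, chr18:11857240-11857439, plus strand: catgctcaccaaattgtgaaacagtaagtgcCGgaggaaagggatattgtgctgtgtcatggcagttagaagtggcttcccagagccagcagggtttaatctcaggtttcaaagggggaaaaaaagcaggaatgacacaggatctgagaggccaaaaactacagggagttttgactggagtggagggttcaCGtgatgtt
GNAL canonical start, chr18:11689064-11689263, plus strand: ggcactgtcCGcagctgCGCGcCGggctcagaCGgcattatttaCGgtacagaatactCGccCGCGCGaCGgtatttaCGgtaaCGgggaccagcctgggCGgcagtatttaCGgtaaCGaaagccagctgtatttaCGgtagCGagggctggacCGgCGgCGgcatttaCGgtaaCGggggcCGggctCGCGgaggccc

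The alternative start of ETS1 had 32 CpG dinucleotides in this stretch. NEBL had 24 at its alternative and 0 at its canonical start, and GNAL 2 and 26. The marked start was the CpG-dense one in NEBL and the CpG-poor one in GNAL. The tight-junction gene CLDN6, whose marked start lay beside that of TNFRSF12A, had 17. Other marked starts were CpG-poor and held the AP-1 motif TGACTCA, which binds Fos and Jun dimers and is read as TGAGTCA from the other strand. It is shown in capitals for ADPRHL1, a gene expressed in heart, and for KIAA1217.
ADPRHL1 alternative start, chr13:113410976-113411175, minus strand: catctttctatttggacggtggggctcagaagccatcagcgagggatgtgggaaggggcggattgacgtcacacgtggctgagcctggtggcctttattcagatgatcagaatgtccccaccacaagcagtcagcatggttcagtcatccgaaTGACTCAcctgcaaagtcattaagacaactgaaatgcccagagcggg
KIAA1217 alternative start, chr10:24466331-24466530, plus strand: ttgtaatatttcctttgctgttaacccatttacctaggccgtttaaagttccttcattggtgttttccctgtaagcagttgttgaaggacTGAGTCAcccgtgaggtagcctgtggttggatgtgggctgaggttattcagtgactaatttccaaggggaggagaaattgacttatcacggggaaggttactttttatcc

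Over all members, a window from 250 bases before to 50 after the start was CpG-rich (GC content of at least 50% and CpG observed over expected of at least 0.6) at 156 of 330 alternative starts (47.3%, 95% Wilson interval 41.9 to 52.7) and at 115 of their own canonical starts (34.8%, 29.9 to 40.1). The same window was CpG-rich at 87.3% of the 11112 canonical starts marked in all 3 lists, at 35.2% of the 8122 unmarked ones and at 33.3% of the 9964 other starts that belonged to genes with an unmarked canonical start and were not members. Within genes, only the alternative start was CpG-rich in 105 genes, only the canonical start in 64, both in 51 and neither in 110. The median CpG observed over expected was 0.631 at alternative and 0.403 at canonical starts, beside 0.867 at marked canonical starts.

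The intervals here and below cover counting error only, since genes and neighbouring sites are not independent. Marked alternative starts near another gene's start and those standing alone had different sequence. Where the strongest marked start lay within 1 kb of the start of another gene, 87 of 121 were CpG-rich (71.9%, 63.3 to 79.1). Where it did not, 69 of 209 were (33.0%, 27 to 39.6), which is near the share of unmarked canonical starts.

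The AP-1 motif followed the opposite order. It was present at 30 of the 209 starts near no other gene (14.4%, 10.2 to 19.8) and at 4 of the 121 near another gene (3.31%, 1.29 to 8.19). At the members' own canonical starts it was present in 10 of 330 (3.03%), at marked canonical starts in 2.78%, at unmarked ones in 4.58% and at other non-member starts in 3.94%. Among the 162 starts that were near no other gene and at least 5 kb from the canonical start, 28 held it (17.3%, 12.2 to 23.8), among them HRH1, the histamine receptor H1 gene, and BEST3, a bestrophin chloride channel gene. A TATA box (TATAAA, 40 to 20 bases before the start) was present at 1 alternative start (0.303%), that of PVRIG, an immune checkpoint receptor gene. It was present at 15 canonical starts of the members (4.55%). The share was 1.80% at marked canonical starts, 7.03% at unmarked ones and 1.43% at other non-member starts. A motif match is a description of letters in this window and was not tested as a binding site.

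**Figure D1:**
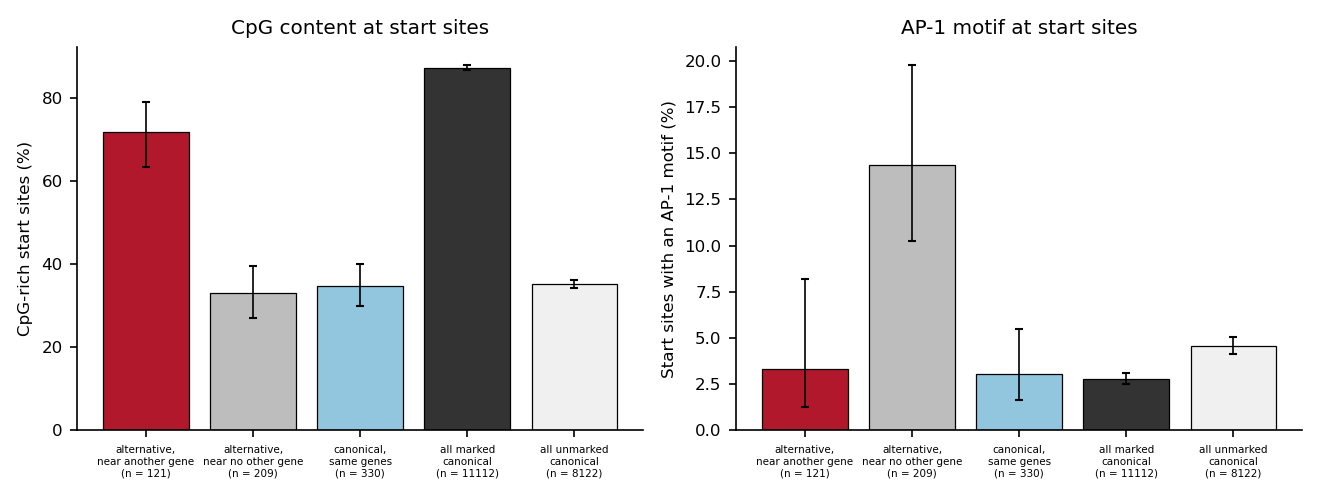
Percentage of start sites that were CpG-rich (left) and that held the AP-1 motif on either strand (right) in a window of 300 bases, with 95% Wilson intervals as error bars and n under each bar. Of alternative starts near another gene 71.9% were CpG-rich, against 33.0% of those near no other gene, while the AP-1 motif was present at 3.31% and 14.4% of them.

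Distances from the canonical start varied over more than 3 orders of magnitude. Each gene is represented by the marked site whose peak had the highest mean percentile of fold enrichment over the 3 lists. This site lay a median of 17262 bp from the canonical start, with quartiles of 6694 and 57512 bp and a range from 321 bp (ADAMTS9, a matrix protease) to 854214 bp (PDE4D, a cAMP phosphodiesterase). It was downstream in 167 genes (50.6%, 45.2 to 56.0) at a median of 26183 bp and upstream in 163 at a median of 15011 bp. Of the downstream sites 158 were in an intron, 65 of them in intron 1, and 9 were in an exon of the canonical transcript. Only 23 sites were under 2 kb away, 259 (78.5%) were at least 5 kb away and 48 were at least 100 kb away.

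**Figure D2:**
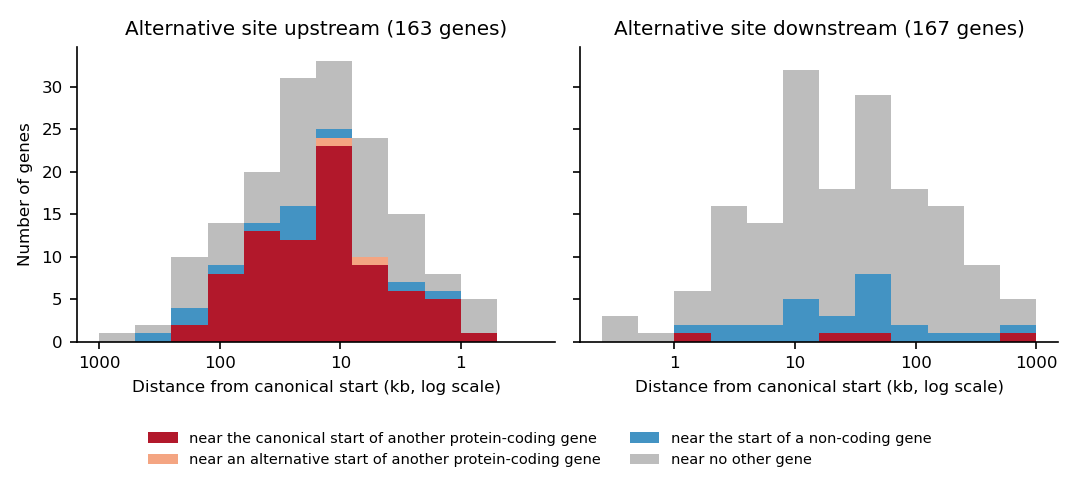
Number of genes by distance of the strongest marked alternative start from the canonical start (kb, log scale), upstream on the left and downstream on the right, coloured by the start sites of other genes within 1 kb. Of the 83 sites near the canonical start of another protein-coding gene 79 were upstream, and of the 209 near no other gene 70 were.

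After PDE4D the farthest sites were those of ROBO1 (an axon guidance receptor, 748983 bp downstream), RARB (retinoic acid receptor beta, 740362 bp upstream), ASTN2 (astrotactin 2, 727823 bp downstream), LAMA2 (laminin alpha 2, 607579 bp downstream) and PDE4B (539109 bp downstream). Their peaks covered a broad range of strength. Fold enrichment at the LAMA2 site was 20.5 in MDA-MB-231 replicate 2, 20.4 in Hs578T replicate 1 and 19.1 in Hs578T replicate 2. At the RARB site it was 3.10, 3.27 and 3.27 in the same order. The ASTN2 site was within 1 kb of the canonical start of TRIM32, a ubiquitin ligase gene that lies inside ASTN2.

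The rule itself keeps every peak of the large lists more than 1 kb from the members' canonical starts, so only the distances beyond that are described. The nearest peak of any large list lay a median of 8774 bp from the canonical start and at most 284953 bp away (MAST4, a microtubule-associated kinase). In 181 genes (54.8%) it was under 10 kb away, and in 50 under 2 kb. The members nearest to the 1 kb limit were RARA (retinoic acid receptor alpha) at 1004 bp, DOCK10 at 1006 bp, FABP6 at 1013 bp and ELANE at 1060 bp. Genes that missed the rule by the smallest distance were ARHGAP9 at 987 bp, GJA1 (connexin 43) at 944 bp and ENSG00000283782 at 943 bp, each through a peak in 1 list, and SULT6B1 at 922 bp through peaks in 3 lists.

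Most genes had 1 marked alternative promoter. A single marked start was present in 209 genes, 2 starts in 67 and up to 22 in a gene. Starts within 1 kb of each other were joined into 373 separate promoters, of which 294 genes had 1, 29 had 2 and 7 had 3. PDE4D had 4 marked starts in 3 promoters, and ITGB2, the beta 2 subunit of the leukocyte integrins, 4 in 2. Of the 330 strongest starts, 213 (64.5%, 59.2 to 69.5) were covered by a peak in all 3 lists. At the others the peak lay beside the start in at least 1 list. A further 31 genes had an alternative start marked in exactly 2 lists and 55 in 1. The annotation grades the evidence for a transcript by a support level, with 1 the best. The strongest start had level 1 or 2 in 216 of the 330 members, and a weaker level or none in the others.

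Fold enrichment over the local background is scaled to each library, so lists are compared by the percentile of a peak within its list. The peaks at the members' strongest starts had a median fold enrichment of 7.79 in MDA-MB-231 replicate 2, 7.41 in Hs578T replicate 1 and 6.12 in Hs578T replicate 2, ranging from 2.49 to 47.4, 2.55 to 43.0 and 2.47 to 32.4. Wherever 3 folds stand together below, they are fold enrichments in this order of lists. The members' median percentiles were 65.4, 67.2 and 63.0. Marked canonical starts had median percentiles of 73.3, 72.2 and 68.8. The members' medians were below those of marked canonical starts in each list. Of the members' peaks, 47, 48 and 47 were in the top 10% of the list (14.2, 14.5 and 14.2%). For marked canonical starts the shares in the top 10% were 18.3, 16.9 and 14.2%.

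The strongest site was that of ABR, 70881 bp downstream in intron 2. Its fold enrichment was 47.4 in MDA-MB-231 replicate 2, 43.0 in Hs578T replicate 1 and 32.4 in Hs578T replicate 2. ADPRHL1 followed with 40.9, 42.7 and 31.3 in the same order, and CLDN6 with 41.5, 41.0 and 29.8. All 3 were in intron or upstream sequence and high in every large list. The transcript support level was 2 at the ABR start and 5 at the CLDN6 start, and the ADPRHL1 start had none. ITGB2 (10073 bp downstream) had 32.3, 35.1 and 24.7, and the Ras exchange factor gene RASGRF1 (85115 bp downstream, intron 14) 22.6, 26.6 and 19.98. The biotinidase gene BTD, 28257 bp downstream, had 23.3, 26.8 and 23.5. The start 490758 bp downstream in IQCJ-SCHIP1 had 29.4, 25.9 and 21.0.

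At the other end, the 4 weakest sites had folds between 2.47 and 3.24. They were those of PAMR1, IL10 (an anti-inflammatory cytokine, with a site near the start of IL19), ZFR2 and ACTA2. The ACTA2 site, 38559 bp upstream of the canonical start of this smooth muscle actin gene and near the start of the death receptor gene FAS, had 2.65, 2.91 and 2.47. They were low in all 3 large lists.

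**Figure D3:**
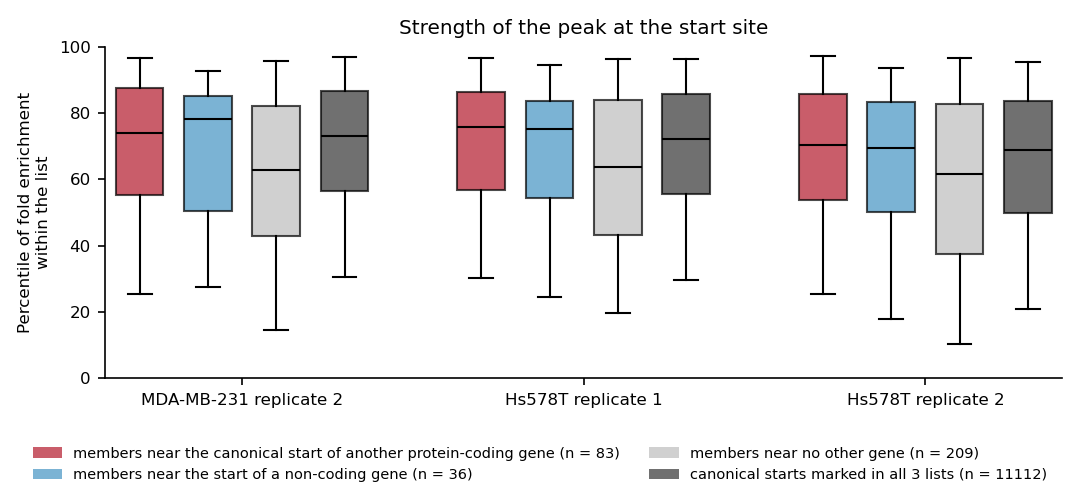
Percentile of fold enrichment, within each large list, of the peak at the strongest marked alternative start by what lay within 1 kb, and of the peak at marked canonical starts. Boxes span the quartiles with the median as a line, and whiskers the 5th to the 95th percentile over genes. Members near no other gene had medians of 62.9, 63.9 and 61.6, and members near the canonical start of another protein-coding gene 74.0, 75.9 and 70.5.

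Strength ranked the members similarly in every pair of lists, which describes genes and not replicates. The Spearman correlation of fold enrichment over the 330 genes was 0.963 between the Hs578T lists, 0.946 between MDA-MB-231 replicate 2 and Hs578T replicate 1 and 0.915 between MDA-MB-231 replicate 2 and Hs578T replicate 2. The percentile in MDA-MB-231 replicate 2 was above both Hs578T lists in 126 genes, below both in 121 and between them in 83. Its median absolute distance from the Hs578T mean was 5.34 percentile points, and the median gap between the Hs578T lists was 4.26 points. These are unlike measures, the first taken from a mean of 2 lists and the second between single lists. With a single usable MDA-MB-231 list no test between lines was made, and even 2 libraries against 2 cannot give an exact permutation p below 0.33.

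A gap of over 20 points with MDA-MB-231 replicate 2 outside both Hs578T lists was present in 17 genes. These were singled out after their values were seen. The largest positive gap was 35.9 points at SLC17A7, a vesicular glutamate transporter gene, where the fold was 4.81 in the MDA-MB-231 list and 2.80 and 2.52 in the Hs578T lists. ZBTB7C (5.12 against 3.23 and 2.70) and DENND2D (7.23 against 3.94 and 3.68) had gaps in the same direction. The largest negative gap was −23.3 points at SH2D7, with 6.41 against 9.20 and 10.2. All of these sites were marked in every large list, as the rule requires, so no gene here is marked in one line alone.

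Many of the marked alternative starts were also beside the start of a neighbouring gene. The strongest start was within 1 kb of another gene's start in 121 of 330 genes (36.7%, 31.6 to 42.0), and in 110 (33.3%, 28.5 to 38.6) this held for every marked start. The neighbour's site was the canonical start of a protein-coding gene in 83 genes, the start of a non-coding gene in 36 and an alternative start of a protein-coding gene in 2. In 105 of the 121 (86.8%) a neighbour lay on the opposite strand, and in 0 was the position identical. As background, 44.4% of marked canonical starts, 14.5% of unmarked ones and 13.03% of the members' own canonical starts were within 1 kb of another gene's start. Counted by site, 211 of the 621 marked alternative starts (34.0%) were, against 13.7% of the non-member starts.

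The 83 members beside the canonical start of a protein-coding neighbour had their marked start upstream in 79 genes. In 77 of them a gene of any type within 1 kb was on the opposite strand. CLDN6, 1888 bp upstream, was beside TNFRSF12A, which encodes Fn14, and had the same start codon as its canonical transcript. APOM, which encodes an apolipoprotein of high-density lipoprotein, had its marked start 3477 bp upstream beside BAG6, a chaperone gene, with folds of 30.2 in MDA-MB-231 replicate 2, 33.9 in Hs578T replicate 1 and 26.6 in Hs578T replicate 2. SLC20A2, a phosphate transporter gene, was marked 40281 bp upstream beside SMIM19 (35.8, 26.7 and 19.3). In the same class were C19orf38 beside TMED1 (24.0, 22.3 and 19.2) and TMEM91 beside B9D2 (22, 21.0 and 19.8). A peak this close to the starts of both genes cannot be assigned to either.

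COL4A6 and COL4A5, the paired type IV collagen genes on chromosome X, are another such pair, 1050 bp upstream of the canonical start of COL4A6. Its folds were 3.73 in MDA-MB-231 replicate 2, 2.60 in Hs578T replicate 1 and 2.73 in Hs578T replicate 2, among the weakest of the members. Of the 36 members beside a non-coding gene, 27 had such a gene on the opposite strand. The 36 included PRKACB, a catalytic subunit gene of protein kinase A, beside its divergent transcript PRKACB-DT (12, 9.77 and 8.43), and ETS1 beside the microRNA gene MIR6090 (17.0, 23.6 and 18.8).

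**Figure D4:**
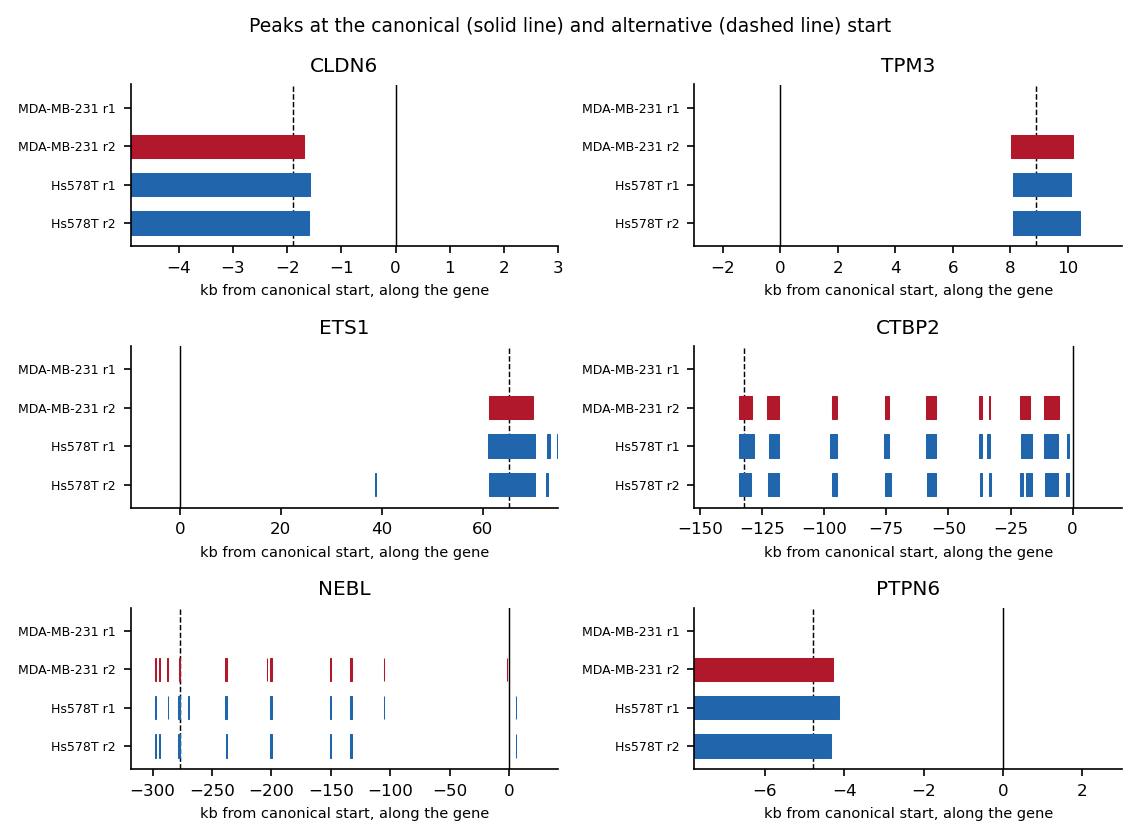
Peaks of the 4 lists (bars) around 6 genes, in kb from the canonical start (solid line) along the direction of transcription, with the strongest marked alternative start as a dashed line. The MDA-MB-231 replicate 1 list has no bar in any of the 6 panels, and the other 3 lists have a peak at the alternative start and none within 1 kb of the canonical start, with further peaks between or beyond them in the Hs578T lists at ETS1 and in all 3 lists at CTBP2 and NEBL. Thin bars are drawn with an outline so that short peaks can be seen.

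What the alternative start would do to the protein was read from the annotated transcripts. The transcript of the strongest start kept the canonical start codon in 110 genes (33.3%), of which 73 started upstream. In 121 genes (36.7%) its start codon lay inside the canonical coding sequence, and a median of 63.2% of the canonical codons remained in frame. In 95 (28.8%) it lay outside the canonical coding sequence, with a median of 85.3% of the canonical codons kept. The remaining transcripts had no coding sequence in common with the canonical one (3 genes, ZFR2 among them) or an incomplete 5′ end (1 gene).

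**Figure D5:**
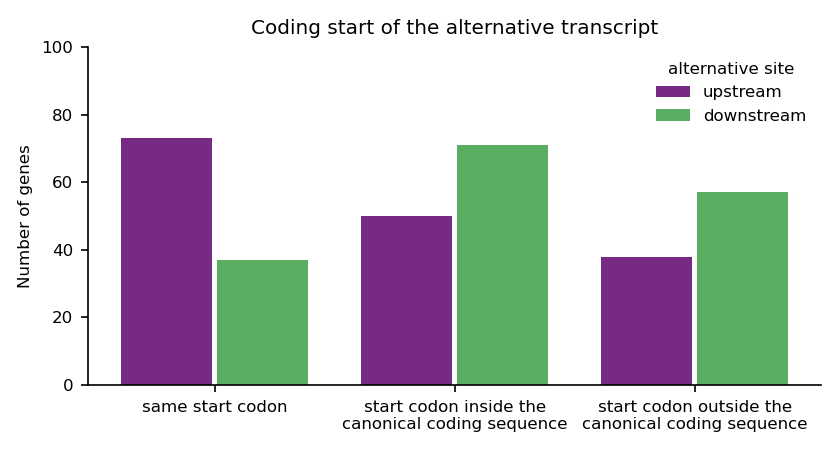
Number of genes by the position of the start codon of the alternative transcript relative to the canonical coding sequence, for alternative starts upstream and downstream of the canonical start. The start codon was shared by 73 upstream and 37 downstream starts, and lay inside the canonical coding sequence for 50 and 71.

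Gene lists are described by their counts of members. The lists were made from symbols or symbol patterns and hold part of each class, so that members such as BTK and SGK1 (kinases), GATA2 and PAX8 (transcription factors) and ICAM3 and TGFBI (adhesion and matrix) lie outside them, and a count holds for the list and not for the class. Of 100 listed genes for actin-binding and linker proteins 40 had an unmarked canonical start and another basic start. Of these, 12 (30.0%) were members, beside 7.44% over all such genes. Where a basic start lay over 2 kb from an unmarked canonical one, such a start was marked in 16.0% of all genes. No list was matched to its background for the number or distance of starts. TPM3 and TPM1 encode tropomyosins, which coil along actin filaments, and both were marked at an internal start. The TPM3 site was 8895 bp downstream in intron 2, with folds of 15.7 in MDA-MB-231 replicate 2, 15.0 in Hs578T replicate 1 and 10.8 in Hs578T replicate 2, and its transcript encodes 248 codons against 285. The TPM1 site was 5692 bp downstream, with 12.3, 10.6 and 9.50, and encodes 245 codons against 284. In both genes the peak was at the start of a short tropomyosin and no peak was at that of the long one.

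ABLIM1, an actin-binding LIM protein gene, was marked 26183 bp downstream (12.3, 11.4 and 10.4). SPTBN4, a beta spectrin gene, was marked 760 bp upstream beside BLVRB (15.7, 12.3 and 9.61). No peak covered this SPTBN4 start. The peaks lay 403 to 467 bp from it and 1163 to 1227 bp from the canonical start, just past the 1 kb limit. Also among the 12 were ANK1, ANK2 and ANK3 (ankyrins, which link membrane proteins to spectrin), MYO5B, MYO15A, KANK1 and NEBL. The NEBL site was 276876 bp upstream, and its transcript has 270 codons against 1014. The list was chosen with results of these data known, and 4 of the 12 sites were beside another gene.

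The listed phosphodiesterase and phosphatase symbols gave 9 members of 49 eligible (18.4%), beside 7.44% over all such genes. Among the 9, PDE4DIP entered by its symbol and encodes a protein that interacts with a phosphodiesterase. The 9 also included PDE4A, PDE4B, PDE4C and PDE4D, which encode the cAMP-specific phosphodiesterases of family 4. PDE4B had folds of 7.33 in MDA-MB-231 replicate 2, 8.67 in Hs578T replicate 1 and 7.59 in Hs578T replicate 2, and PDE4D 9.01, 5.79 and 4.95. At PDE4B the alternative transcript encodes 564 codons against 736, and at PDE4D 507 against 809. PTPN6, which encodes the phosphatase SHP-1 known from blood cells, was marked 4779 bp upstream (13.1, 14.5 and 12.9) at a transcript of 597 codons against 595. PTPRS, a receptor phosphatase gene, was marked 54424 bp downstream (23.3, 19.7 and 17.7), and PDE2A 31991 bp downstream (8.90, 8.86 and 7.32).

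The listed transcription factor genes gave 10 of 55 eligible (18.2%), beside 7.44% over all such genes. Over all genes with a basic start over 2 kb from an unmarked canonical one, such a start was marked in 16.0%. The list was not matched to either background. ETS1 was marked 65248 bp downstream in intron 3, at a transcript of 441 codons against 485. NR2E3, a nuclear receptor gene of the retina, was marked 17916 bp upstream (14.4, 14.6 and 13.9), HOXC9 4652 bp upstream (15.3, 12.3 and 11.5) and FOXP2 328311 bp upstream (13.6, 12.8 and 9.96). The retinoic acid receptor genes RARA and RARB were both members, RARA 33183 bp downstream with folds of 10.3, 9.43 and 6.34. HOXC4, MEF2B, PRDM8 and CREB5 were the other members on the list.

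The listed protein kinase genes gave 5 of 53 eligible (9.43%, beside 7.44% over all such genes), namely PRKG2, PRKACB, MAST4, MAPK10 and PTK2B. The MAST4 site was 408227 bp downstream (11.7, 9.29 and 7.64) and the PRKG2 site 61490 bp downstream (12.7, 12.3 and 10.6).

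Other lists were also near or below the share of 7.44% over all eligible genes. Zinc finger genes named ZNF gave 5 of 51 (9.80%), with ZNF19 (15.8, 18.9 and 17.2) and ZNF219 (17.4, 18.2 and 13.6) the strongest. Listed ubiquitin ligase and protease genes gave 6 of 67 (8.96%), among them TRIM69 at 20.8, 22.5 and 17.7. Listed solute carrier and channel genes gave 15 of 258 (5.81%), of which SLC20A2 and KCNIP3, a potassium channel-interacting protein gene (20.6, 20.4 and 16.4), were the strongest. Listed matrix and adhesion genes gave 4 of 130 (3.08%), namely ITGB2, LAMA2, ADAMTS9 and COL4A6. None of the 29 genes of the study's pathway was a member, since all 29 had a marked canonical start.

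Of 45 genes that textbooks name for alternative promoters, 28 had a marked canonical start and 17 an unmarked one. All 17 had another basic start, and 2 of them (11.8%) were members, beside 7.44% over all such genes. FGF1, a fibroblast growth factor gene, was marked 41789 bp downstream (13.6, 13.7 and 13.2) with an unaltered coding sequence of 155 codons. DNMT3A, a DNA methyltransferase gene, was marked 89614 bp downstream (3.59, 3.51 and 3.10), at a transcript of 723 codons against 912.

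Some other members are described here after their values were seen. CTBP2 encodes a transcriptional corepressor and, from another promoter, the synaptic ribbon protein RIBEYE. Its marked start lay 132428 bp upstream of the canonical one and encodes 445 codons against 985, with folds of 18.9 in MDA-MB-231 replicate 2, 14.8 in Hs578T replicate 1 and 10.2 in Hs578T replicate 2. RASSF1, a tumour suppressor gene with several promoters, was marked 2603 bp downstream of the canonical start (13.3, 10.7 and 9.95). SGK1, a kinase gene induced by serum and glucocorticoids, was marked 142121 bp downstream (16.4, 15.8 and 10.7) at a transcript of 445 codons against 526. DCTN1, a dynactin subunit gene, was marked 11776 bp upstream (15.2, 11.5 and 13.4), and HDAC9, a histone deacetylase gene, 13524 bp downstream (19.6, 17.1 and 15.6). In all 5 genes the canonical start in the annotation is that of a longer protein than the one at the marked start.

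Members were spread over all the chromosomes examined. Chromosome 19 held 39 of them (11.8%), against 7.39% of all protein-coding genes, chromosome 1 held 27 (8.18% against 10.3%) and chromosome 3 held 22 (6.67% against 5.41%). A basic start over 2 kb from the canonical one was marked in 307 of 1918 genes with an unmarked canonical start (16.0%) and in 904 of 2571 genes with a marked one (35.2%). The difference between these shares was not tested, since the peaks define both.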

How the data were processed

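Peak lists of 4 H3K27ac libraries were used. The authors trimmed reads with Trimmomatic, mapped them to hg38 with Bowtie2, called peaks per library with MACS2 against input and removed blacklisted regions. The versions and the peak-calling settings are not given in the sources used here, and sequencing depth is unknown. Each deposited peak carries a score, a fold enrichment (a ratio over local background) and −log10 p-values and q-values. The score was 10 times the −log10 q-value, and all peaks fitted within the reference chromosomes.

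Start sites came from GENCODE release 44 (assembly 38), and sequences from the hg38 genome. A peak overlapping the window of 1 kb on either side marked a start. Strength was the percentile of fold enrichment within a list, and the site with the highest mean percentile represented a gene. Scripts ran in Python 3.11.15 with pandas 2.3.3, scipy 1.17.1 and pysam 0.24.0. The rule was tested on simulated data. No comparison was tested, because the peaks chose the members.

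The members and gene lists were chosen with earlier results of these data known. Named genes were the 10 strongest, 6 farthest and 4 weakest members, 4 on each side of the 1 kb limit, the 5 strongest near no other gene (at least 5 kb away), the 5 strongest near a protein-coding neighbour, and up to 4 per gene list. Others are marked as such in the text or named from their list or class. Alternatives were other windows, peaks of higher score or lower q, other transcript sets and canonical definitions, other neighbour rules and leaving out each list. Some items are not reported here.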

Additional observations from a re-analysis of the deposited data

How the results depend on the processing

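Of 91 values recomputed over 8 results, 53 stayed within the spread over the lists taken singly, or within 1.5 times for a count, and 38 moved. No paired analysis was possible because no result comes from a test. The cause of the moves was not tested. All 330 genes were kept when MDA-MB-231 replicate 2, Hs578T replicate 1 or Hs578T replicate 2 was left out, which the rule fixes in advance, since dropping a list only relaxes it. Genes then numbered 344 to 356, sites 647 to 671, the median distance was 17080 to 17267 bp, the percentage with every marked start near another gene 32.4 to 32.9 and the median percentile 63.9 to 66.4. CpG-rich starts near another gene were 71.0 to 71.5%, starts near no other gene with TGACTCA 13.3 to 14.0% and starts with the canonical start codon 34.0 to 35.0% (these 3 results were added after seeing the data). Adding MDA-MB-231 replicate 1 to the rule left 0 genes and 0 sites, so no other value could be given.

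The number of genes became 219 with the strongest 50% of peaks and 728 with all transcripts. Here the strongest 50% were the peaks with a score of at least the list's median, not a cut on fold enrichment. They were required at the alternative start alone. The number of sites became 1944 with all transcripts, 335 with transcript support level 1 or 2 and 1536 with the 5'-most coding start as canonical, under which 163 of the 330 genes (49.4%) were kept. The median distance became 22886 bp with a 2 kb window, 19465 bp with q of at most 0.01, 22377 bp where a peak had to cover the start, 19908 bp with at least 500 bp of the window covered, 20118 bp with all transcripts, 20260 bp with the 5'-most start and 28257 bp for sites at least 5 kb away. The percentage with every marked start near another gene, 33.3 as reported, became 35.5 with a 500 bp window, 31.9 with 2 kb, 37.9 with the strongest 50%, 37.4 where a peak covered the start, 36.5 with 500 bp covered, 26.9 with all transcripts, 28.6 with support level 1 or 2, 22.6 with the 5'-most start, 26.4 and 40 with neighbours within 500 bp and 2 kb, and 24.8 with protein-coding neighbours alone. The median percentile, 65.6 as reported, became 77.5 with the strongest 50%, 68.2 with q of at most 0.01, 74.0 where a peak covered the start, 71.2 with 500 bp covered, 63.7 with support level 1 or 2 and 68.3 for sites at least 5 kb away. With a sequence window of 500 bases, also added after seeing the data, CpG-rich starts near another gene were 75.2% and starts near no other gene with TGACTCA 18.2%.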
